A study of Mus musculus with 10 samples.

Results

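RBPJ peaks were examined at 8 genes that encode subunits of the transcription factor AP-1 or the related factor Atf3: Fos, Fosb, Fosl1, Fosl2, Jun, Junb, Jund and Atf3. The peaks were taken from a chromatin immunoprecipitation and sequencing (ChIP-seq) experiment in RD1 cells, labelled as mouse brain pericytes. A peak was counted for a gene when its centre lay in the gene body or in the regulatory domain, which runs from 5 kb upstream to 1 kb downstream of the 5' end of the gene and extends by at most 1 Mb until it meets the same basal stretch of the next protein-coding gene. By this rule 21 of 11094 peaks (0.189%) belonged to the 8 genes, and each gene had at least 1. The genes were chosen by family and by the number of peaks seen at Atf3, which looked high for the length of its domain, so peak numbers are given as a description without a test.

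RBPJ is the DNA-binding protein through which Notch receptors act on genes, and in the absence of Notch activity it can hold corepressors at the same sites. AP-1 is a dimer of a Fos protein with a Jun protein, or of Jun proteins with each other, that binds DNA through a basic leucine zipper. Fos and Jun are textbook immediate-early genes, which serum, growth factors and stress switch on within minutes, while other members respond later or are more evenly expressed, and in mural cells and fibroblasts AP-1 takes part in matrix and wound responses. Atf3 is a stress-induced leucine zipper factor that can pair with Jun proteins and often represses its targets.

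The RD1 cells were untreated and were grown in pericyte medium on collagen I. The series holds 10 samples in 5 groups of 2, for RBPJ, the histone marks H3K4me3 and H3K4me1, histone H3 itself and input DNA. Only the RBPJ intervals were used here. Both files hold the same list of 11094 intervals, so the list was counted as 1 sample, without spread between replicates and without peak height or read depth. Per the study's text the ChIP-seq cells were primary brain pericytes in culture, and its methods describe such cultures from adult mice homozygous for floxed Rbpj. The name RD1 occurs in the labels and is not explained there. A list of binding sites does not measure expression, so the pericyte label could not be checked against marker genes, nor whether any of the 8 genes was transcribed.

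Sequences from the peaks that carry the motifs described below are shown first, on the plus strand of GRCm38. Capitals mark the RBPJ core TGGGAA, the AP-1 site TGAGTCA, the cAMP response element TGACGTCA or the CArG box, the binding site of serum response factor. A core on the minus strand reads TTCCCA here, and an AP-1 site TGACTCA. In the stretch 75 kb upstream of Atf3, capitals also mark GGAATG, the site of TEAD factors, and the RUNX site TGTGGT, which reads ACCACA on this strand.

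The first set comes from distal peaks with an AP-1 site, which lay within 80 bp of the centre in all but the Fosl1 peak. They are at chr5:32089644-32089763 and chr5:31882518-31882637 for Fosl2, chr7:19333019-19333138 for Fosb, chr1:191292503-191292622 for Atf3 and chr19:5433511-5433620 for Fosl1.
Fosl2, 46 kb upstream: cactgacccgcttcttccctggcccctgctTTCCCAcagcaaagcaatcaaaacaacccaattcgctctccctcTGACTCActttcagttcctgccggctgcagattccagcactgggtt
Fosl2, 253 kb upstream: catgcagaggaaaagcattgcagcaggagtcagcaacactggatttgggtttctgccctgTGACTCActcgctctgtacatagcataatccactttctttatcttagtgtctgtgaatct
Fosb, 23 kb upstream: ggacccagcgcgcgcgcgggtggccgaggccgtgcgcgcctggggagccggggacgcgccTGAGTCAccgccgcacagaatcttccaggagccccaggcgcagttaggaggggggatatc
Atf3, 75 kb upstream: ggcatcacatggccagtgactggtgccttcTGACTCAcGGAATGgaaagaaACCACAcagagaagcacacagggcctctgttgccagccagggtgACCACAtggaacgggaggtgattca
Fosl1, 14 kb upstream: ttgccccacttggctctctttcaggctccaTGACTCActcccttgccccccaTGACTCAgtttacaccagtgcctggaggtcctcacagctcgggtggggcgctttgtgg

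The second set shows RBPJ cores near the centre of distal peaks and in the peaks at start sites. They are at chr12:85462372-85462491 and chr12:85473401-85473600 for Fos, chr4:95161546-95161665 for Jun and chr1:191183658-191183777 for Atf3.
Fos, 11 kb upstream: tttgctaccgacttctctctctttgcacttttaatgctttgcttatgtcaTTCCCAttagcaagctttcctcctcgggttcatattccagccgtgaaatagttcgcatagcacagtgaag
Jun, 109 kb upstream: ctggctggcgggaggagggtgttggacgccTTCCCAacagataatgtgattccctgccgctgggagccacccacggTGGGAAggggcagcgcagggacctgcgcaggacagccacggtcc
Atf3, upstream of the internal start: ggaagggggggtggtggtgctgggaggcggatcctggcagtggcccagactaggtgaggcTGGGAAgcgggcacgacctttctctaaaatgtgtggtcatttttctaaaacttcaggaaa
Fos, upstream of the start, RBPJ core and CArG box: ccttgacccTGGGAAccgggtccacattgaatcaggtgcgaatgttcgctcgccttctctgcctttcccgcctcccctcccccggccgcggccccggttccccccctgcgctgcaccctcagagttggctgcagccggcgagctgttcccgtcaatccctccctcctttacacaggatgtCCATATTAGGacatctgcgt

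The last set shows sites of the family's own factors next to start sites, at chr8:70698725-70698754 for Jund and chr5:32135844-32135873 for Fosl2.
Jund, cAMP response element: cccacccccaTGACGTCAacccacaatgca
Fosl2, AP-1 site: gccattgtagTGACTCAtctcgggcagagc

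All 8 genes had a peak, where 46.7% of 21938 protein-coding genes did. Long domains catch more peaks, and the share of genes with a peak was 35.3% for domains under 50 kb, 46.1% for 50 to 200 kb and 61.1% above 200 kb. Fosl1, Junb and Jund fell in the shortest class, Atf3 and Fosb in the middle and Fos, Fosl2 and Jun in the longest. The peaks were unevenly divided. Fos had 7, Atf3 had 6, Fosl2 had 3 and each of the other 5 genes had 1.

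**Figure D1:**
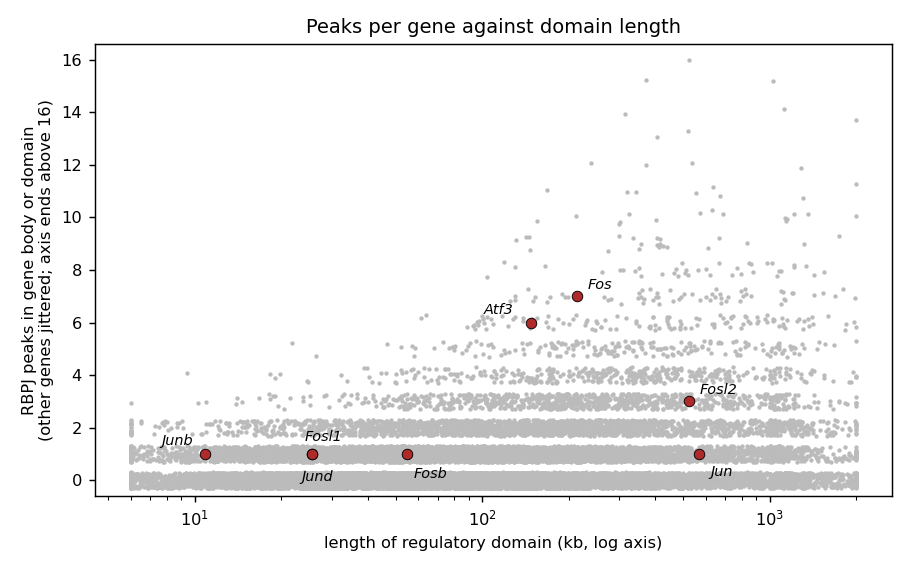
Number of RBPJ peaks in the gene body or regulatory domain (y axis) against the length of the domain in kb (x axis, log scale) for 21938 protein-coding genes, with the 8 AP-1 and Atf3 genes in red. Fos (7 peaks) and Atf3 (6) lie above most genes with domains of their length, Fosl1 and Jund coincide at 1 peak, and 7 genes with more than 16 peaks are beyond the axis. The position of Atf3 was part of the reason for choosing the genes.

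Only 1.30% of all genes had 6 or more peaks and 0.748% had 7 or more. For Atf3 this number, and its density below, restate the reason for which the genes were chosen. Per length the order was different. Junb, with 1 peak in a domain of 10.8 kb, had 9.23 peaks per 100 kb, a density reached by 2.16% of genes. Atf3 had 4.07 per 100 kb in 147 kb (7.21% of genes at least as dense) and Fos 3.27 in 214 kb (9.42%). Fosl1 and Jund lay in between, at 3.90 and 3.89. Fosb had 1.83, Fosl2 0.571 and Jun 0.176, and 43.9% of genes were at least as dense as Jun.

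Peaks centred within 1 kb of the start of a protein-coding transcript were found at 5 of the 8 genes, against 27.6% of all genes. These were Atf3, Fos, Fosl2, Junb and Jund. Fosb, Fosl1 and Jun had no such peak.

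At Fos (chromosome 12, 85473890 to 85477273, plus strand), which encodes the founding Fos protein, the peak at the start ran from 85472064 to 85474201. It was centred 758 bp upstream and reached from 1826 bp upstream to 311 bp into the gene. This interval of 2138 bp held 3 TGGGAA sites, 477, 1130 and 1171 bp upstream. It also held a CArG box 304 bp upstream of the start, where the serum response element of Fos is known to lie. The sequence above shows the nearest RBPJ core and this box, with 165 bp between them.

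The other 6 Fos peaks lay on both sides of the gene and outside protein-coding genes. Upstream, a peak of 782 bp (85455257 to 85456038) was centred 18.2 kb away and held 3 TGGGAA sites. A narrower one of 325 bp (85462244 to 85462568) was 11.5 kb away, with a single TGGGAA 19 bp from its centre. This core overlaps a TEAD site (GGAATG) by 4 bases. Downstream, intervals of 2180 bp (85485882 to 85488061) and 2426 bp (85497346 to 85499771) were 13.1 and 24.7 kb from the 5' end of Fos, with 4 and 2 TGGGAA sites. The first of them held a second CArG box. The last 2 peaks, of 1922 and 555 bp, lay 96.7 and 101 kb downstream. They were closer to Jdp2, which encodes another partner of Jun proteins, at 28.4 and 23.9 kb upstream of its 5' end. The 4 downstream peaks lay in the domains of both Fos and Jdp2, and the 2 upstream ones also in that of Tmed10. The peak 96.7 kb downstream was the only Fos peak with AP-1 sites, and it held 3.

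Atf3 (chromosome 1, 191170296 to 191218039, minus strand) has coding transcripts with different starts, and positions of its peaks differ with the start they are measured from. From the outer 5' end, the nearest peak was 6894 bp upstream. The peak from 191182560 to 191184393 was centred 34563 bp downstream of that end, but 136 bp upstream of the start of another coding transcript, 34699 bp inside the gene. It was 1834 bp wide and held 2 TGGGAA sites and 1 AP-1 site. When this internal start was used to draw the domain, the number of peaks stayed at 6.

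Upstream of Atf3 there were 5 peaks. The nearest one (191224222 to 191225645, 1424 bp) was centred within 1 kb of the start of D730003I15Rik, a noncoding gene, and held no TGGGAA and 1 AP-1 site. The other 4 formed a group 58.8 to 94.7 kb upstream, at 191275632 to 191277993 (2362 bp), 191288804 to 191289313 (510 bp), 191292476 to 191292722 (247 bp) and 191312514 to 191313046 (533 bp). All 4 were nearer to Nenf than to the outer 5' end of Atf3, and the farthest was in an intron of Nenf, 5.41 kb from its start. TGGGAA occurred in the intervals of 2362 bp (1 site) and 510 bp (2 sites) and in neither of the others. The 247 bp interval held an AP-1 site, with a TEAD site 1 bp further on and a RUNX site 7 bp after that, as shown above. The interval of 533 bp held neither an RBPJ core nor an AP-1 site. Just outside the domain, 721 bp past its edge, lay a peak of 306 bp (191317762 to 191318067), whereas the member peak closest to an edge was 4413 bp inside.

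**Figure D2:**
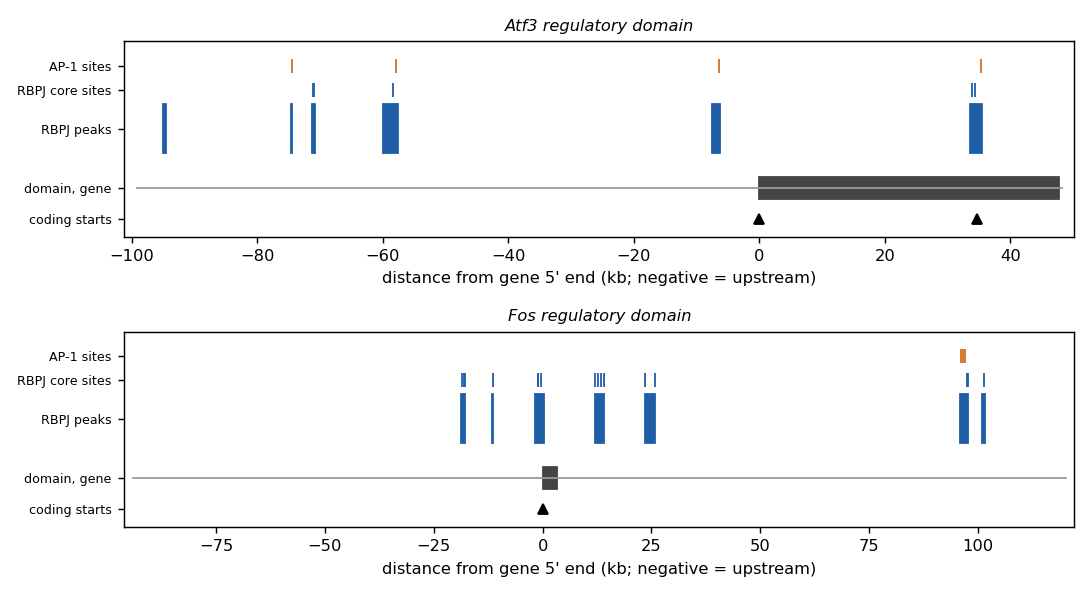
Regulatory domains of Atf3 and Fos drawn to scale in kb from the 5' end of each gene, with gene bodies in dark grey, RBPJ peaks in blue, starts of coding transcripts as triangles, and RBPJ cores (TGGGAA) and AP-1 sites (TGAGTCA) inside the peaks as ticks. The downstream Atf3 peak lies at the internal start, 34.6 kb from the outer one, and AP-1 sites occur in 4 of 6 Atf3 peaks but in 1 of 7 Fos peaks.

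The widest peaks of the family covered the starts of Fosl2 and Junb. Fosl2 (chromosome 5, 32135801 to 32157842, plus strand) encodes the Fos-related antigen Fra-2. Its peak from 32133695 to 32138793 spanned 5099 bp, from 2106 bp upstream to 2992 bp downstream, with its centre in the 5' untranslated region. Among 5489 peaks within 1 kb of a start site, 26 were at least as wide. It contained 5 TGGGAA sites, none within 1 kb of its centre, and an AP-1 site 56 bp downstream of the start. Distal peaks of the same gene were narrow. The one 46.0 kb upstream (32089525 to 32089986, 462 bp) held a TGGGAA and an AP-1 site 78 and 34 bp from its centre, with 38 bp between them. It was the only peak of the family with both motifs in its central 200 bp, and 3.35% of all peaks had both. The other, 253 kb upstream in an intron of Babam2 (31882418 to 31882637, 220 bp), had an AP-1 site 54 bp from its centre and no TGGGAA.

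Junb (chromosome 8, 84974484 to 84978718, minus strand), a Jun protein that can restrain the activity of Jun, was covered by an interval of 4318 bp (84976096 to 84980413). It reached from 1695 bp upstream to 2622 bp downstream and was centred in the coding exon. Only 55 of the peaks near start sites were at least as wide. The interval held 3 TGGGAA sites, 266 bp downstream and 701 and 1177 bp upstream of the start, and 2 CArG boxes, 1446 bp upstream and 2089 bp downstream.

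Jund (chromosome 8, 70698949 to 70700616, plus strand), the Jun protein with the most constant expression across tissues, lay next to a narrower interval of 638 bp (70698347 to 70698984) whose centre was 284 bp upstream. No TGGGAA was found in it. It held the variant core TGAGAA and, 210 bp upstream of the start, the only TGACGTCA in the 21 peaks. Over whole peaks this element occurred in 1 of 21 (4.76%), in 3.01% of all peaks and in 4.65% of those near start sites. In the central 200 bp, where the Jund site also lay, the shares were 0.739% of all peaks and 1.15% of those near start sites.

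The remaining 3 genes were marked by distal peaks alone. Jun (chromosome 4, 95049034 to 95052222, minus strand), the founding Jun protein, had its single interval, 858 bp wide (95161062 to 95161919), at 109 kb upstream inside the noncoding gene Junos. It held 2 TGGGAA sites in opposite directions with 40 bp between them, 89 and 135 bp from the centre. Fosb (chromosome 7, 19302696 to 19310051, minus strand) had a peak of 273 bp from 19332866 to 19333138, 23.0 kb upstream. It lay in the noncoding gene D830036C21Rik, within 1 kb of the start of the noncoding Gm44698, and closer to Ercc1 (11.8 kb) than to Fosb. It contained an AP-1 site and no TGGGAA.

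Fosl1 (chromosome 19, 5447547 to 5455946, plus strand), which encodes Fra-1, had a peak of 845 bp from 5432999 to 5433843, 14.1 kb upstream and 8.28 kb from the start of AI837181. It held 2 AP-1 sites, 123 and 145 bp from its centre with 15 bp between them, and no TGGGAA. For Fosl1 the result depends on the edge of the domain. Its nearest peak, 10619 bp downstream, lay beyond the domain. A further interval (5428210 to 5430129, 1920 bp) was centred 811 bp outside and overlapped the domain with its edge.

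Jun and Fosb lie on chromosomes with few peaks. Chromosomes 4 and 7 had 7.22 to 11.9 peaks per 100 protein-coding genes and the other 17 autosomes 48.0 to 78.7, and 12.3% of genes on the former had a peak, against 55.3% on the latter. Within 5 Mb to either side there were 4 peaks around Jun and 15 around Fosb, where the median gene had 51.0. The other 6 members had 62 to 145. The absence of a peak at the start of Jun or Fosb is subject to this shortage, and its part in the result was not tested.

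**Figure D3:**
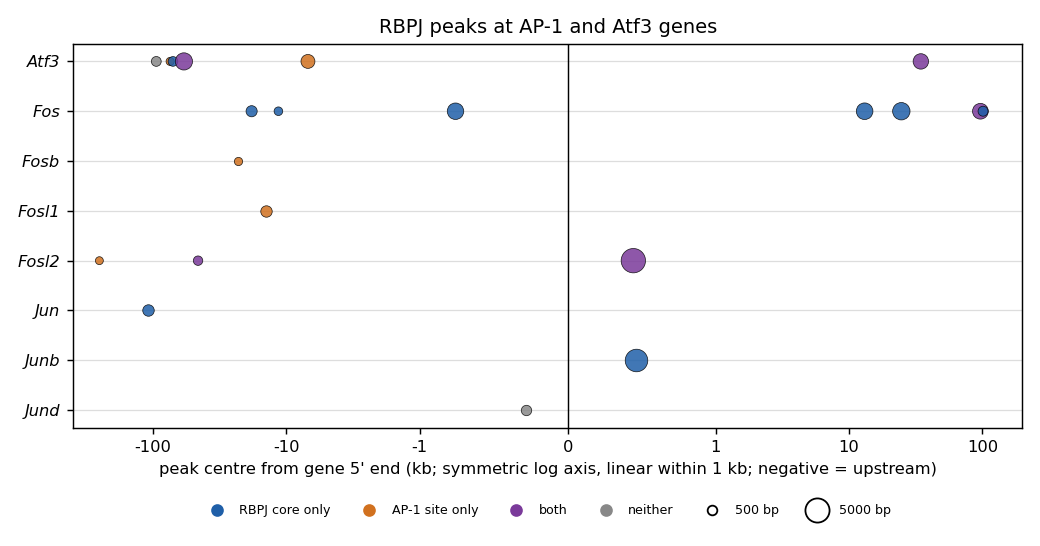
Centres of the 21 RBPJ peaks in kb from the 5' end of each gene (x axis, symmetric log scale, linear within 1 kb, upstream to the left), with circle area rising with peak width and colour showing whether the whole peak holds TGGGAA (RBPJ core), TGAGTCA (AP-1 site), both or neither. Fos, Fosl2, Junb and Jund have a peak within 1 kb of the 5' end, and peaks of Fosb, Fosl1 and Jun are all more than 10 kb upstream.

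Most peaks of the family were distal. Fos with 7 and Atf3 with 6 supplied most of the 21, and Atf3 was chosen with its peak number in view. The shares below therefore describe mainly Fos and Atf3. Of the 21, 16 (76.2%) had their centre over 1 kb from any protein-coding start, compared with 50.5% of all peaks, and 16 had their centre outside protein-coding genes (40.4% of all peaks). Upstream peaks numbered 14 (66.7%) and downstream ones 7, and over all pairs of a gene and a peak in its domain 40.1% were upstream. A peak in the body of its own gene counts as downstream, and short bodies leave less room for such peaks. Introns held 14.3% of the 21 peaks and 33.0% of all peaks. The family was not matched to other genes for gene length. Its part in the shares outside genes and upstream was not tested. Of the 21 peaks, 18 were within 100 kb of the 5' end, as were 76.2% of all pairs. Domains of neighbouring genes overlap by construction, and 58.2% of all peaks, and 87.7% of distal ones, lay in at least 2. In the family these were 18 of 21 peaks and 16 of 16 distal ones, shared with 9 neighbouring genes in all. Those not yet named were Fam71a beside Atf3, Iqcn beside Jund and Fggy beside Jun. Only the peaks at the starts of Fos, Fosl2 and Junb belonged to no other domain. By distance to the nearest 5' end of a gene, 11 peaks (52.4%) were assigned to the family and 10 to neighbours, and over all pairs the gene was the nearest in 60.7%.

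Peaks at the 8 genes had a median width of 845 bp (quartiles 510 and 2138 bp, range 220 to 5099 bp), and all peaks 690 bp (382 and 1419 bp). The 95% interval of the median, from ranks, was 510 to 2138 bp and included the value of all peaks. Over 2 kb in width were 6 of the 21 peaks (28.6%) and 15.6% of all. Median GC content was 56.1% at the family and 55.8% over all peaks.

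For the RBPJ core in the centre of peaks, the counting interval of the family included the share of the whole list. TGGGAA lay in the central 200 bp of 3 of 21 peaks, or 14.3% (95% exact binomial interval 3.05 to 36.3%), where 25.8% of all peaks had it. These 3 were the Fos peak 11.5 kb upstream, the Fosl2 peak 46.0 kb upstream and the Jun peak. Among distal peaks alone the share was 18.8% (4.05 to 45.6%) against 35.2%. Over whole peaks TGGGAA occurred in 14 of 21 (66.7%) and in 64.9% of all, and over distal whole peaks in 10 of 16 (62.5%) and in 71.6% of all. The density was 1.07 sites per kb in the family and 1.25 over all peaks. No peak held RBPJ cores facing each other at a gap of 11 to 21 bp, counting TGGGAA and TGAGAA, and 2.65% of all peaks did.

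AP-1 sites were found in 4 of 21 central windows (19.0%, interval 5.45 to 41.9%), against 8.31% of all peaks. In the central 100 bp the shares were 4.76% and 4.53%. The site was present in 10 of 21 whole peaks (47.6%, interval 25.7 to 70.2%), against 24.8%. The family held more distal peaks than the list, and among distal whole peaks alone the site was found in 8 of 16 (50.0%, interval 24.7 to 75.3%), against 36.6% of all distal peaks, which lies inside the interval. Among distal peaks 4 of 16 had a central site (interval 7.27 to 52.4%), against 14.2% of all distal peaks. Per length, the whole peaks held 0.434 AP-1 sites per kb and all peaks 0.295. All 4 central sites were in the 5 peaks under 500 bp, 1 each at Atf3 and Fosb and 2 at Fosl2. The fifth was the Fos peak with a central RBPJ core. Among all 4022 peaks under 500 bp, 15.7% had an AP-1 site and 41.1% TGGGAA in the central window. The 5 peaks were all distal, and among all distal peaks under 500 bp the shares were 21.8% and 48.7%. None of the 16 wider peaks of the family had a central AP-1 site, and 4.10% of all wider peaks did. The grouping by width was made after the values were seen, and the 5 peaks are few. In genomic windows of 200 bp placed 5 kb to either side, AP-1 sites occurred in 0 of 42 beside the family (an allowance of 3 windows for a count of 0 gives up to 7.14%) and in 3.65% beside all peaks. TGGGAA occurred there in 21.4% and 18.2%.

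**Figure D4:**
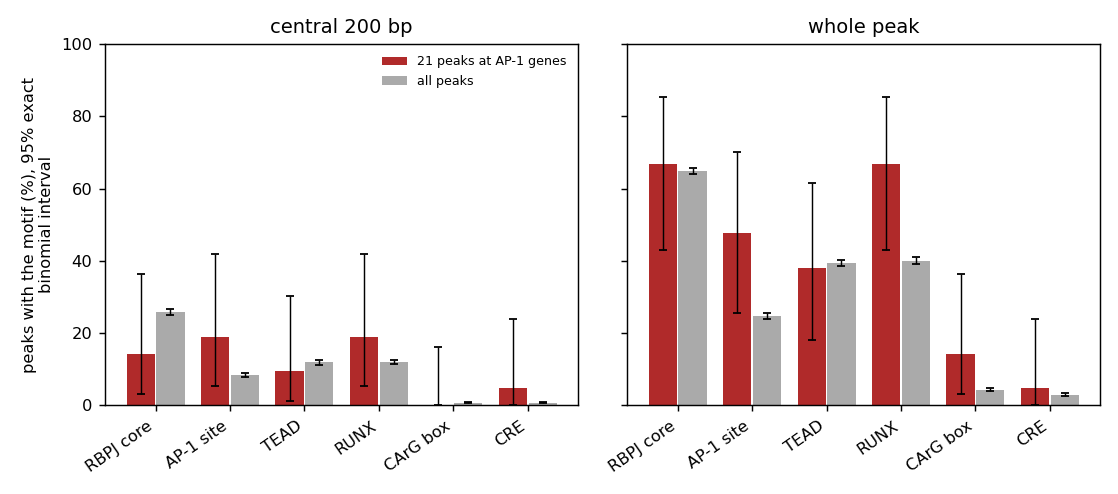
Share of peaks (%) holding each motif in the central 200 bp (left) and in the whole peak (right), for the 21 peaks at AP-1 and Atf3 genes (red) and all 11094 peaks (grey), with 95% exact binomial intervals that cover counting error only. The interval of the family includes the share of all peaks for every motif in the central window, whereas in whole peaks, whose median width was 845 bp in the family and 690 bp in the list, the shares for AP-1 and RUNX sites of all peaks lie below it, but inside the interval when distal peaks alone are compared (not drawn).

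Taking both motifs in whole peaks, 9 peaks held TGGGAA without an AP-1 site, 5 an AP-1 site without TGGGAA, 5 both (23.8%, all peaks 19.1%) and 2 neither. At least 1 of the motifs was present in 90.5% of the family (interval 69.6 to 98.8%) and in 70.6% of all peaks, inside the interval. Among distal peaks the shares were 93.8% (69.8 to 99.8%) and 80.0%. No central window of the family held a CArG box (0.694% of all peaks). It occurred in 3 whole peaks (14.3%, interval 3.05 to 36.3%) and in 4.33% of all, inside the interval. These 3 were over 2 kb wide and lay at the start and 13.1 kb downstream of Fos and at the start of Junb. TEAD sites were in 8 (38.1%, all peaks 39.4%) and RUNX sites in 14 (66.7%, interval 43.0 to 85.4%, all peaks 40.0%). Among distal peaks RUNX sites occurred in 10 of 16 (62.5%, interval 35.4 to 84.8%) and in 48.1% of all, inside the interval.

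Genes around the family in the same pathways were counted in the same way. Of 14 other leucine zipper partners 10 had a peak, among them Jdp2, Atf7 and Creb1, and Atf1, Atf4, Atf5 and Atf6 had none. Of 10 Maf, Nrf and Bach genes, related zipper factors, 8 had a peak, and of 4 Cebp genes 2. The kinases and phosphatases that act on AP-1 had a peak at 9 of 10 genes, with 7 of 10 near a start site. Dusp1, a phosphatase that ends MAP kinase signalling, had 6 peaks in a domain of 97.1 kb, and the peak nearest to its 5' end was 22521 bp away. Among 14 serum response and immediate-early genes 13 had a peak, including Myc with 14 in 2000 kb and Klf6 with 7 in 1682 kb. Altogether 42 of these 52 genes (80.8%) had a peak, and 24 (46.2%) had one near a start site, beside 46.7% and 27.6% of all protein-coding genes. Of the 10 without a peak, 6 lie on chromosomes 4, 7 or X. The lists were not matched for domain length, and among all genes with domains above 200 kb 61.1% had a peak.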

How the data were processed

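ChIP-seq peaks of RBPJ in RD1 cells were analysed, with groups taken from the sample titles. Reads were mapped by the authors with bowtie (GRCm38), which discarded reads matching more than 3 positions, and duplicates were removed. MACS2 and PeakRanger were each run on both replicates, peaks closer than 2 kb were joined, and regions needed at least 3 overlapping calls and no overlap with blacklisted regions. The deposited positions are start and end in bp of 1 consensus list, so peaks carry no measure of strength, joining widens them, and in a wide peak the bound position may be far from the midpoint. The H3K4me1, H3K4me3, H3 and input samples were not used here.

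Starts were read as counted from 1. Genes and transcripts came from GENCODE M21 and sequence from GRCm38.p6, and 0 peaks ran past a chromosome end. Proximal peaks had their midpoint at most 1 kb from the start of a protein-coding transcript. Motifs were searched on both strands in whole peaks and in 200 bp around the centre, where TGGGAA and GGAATG can overlap by 4 bases. GC content and motif counts used the reference sequence. Intervals are 95% exact (Clopper-Pearson) and cover counting error only. Sequencing depth is unknown here. No test was run, because the list has no replicates. The members and all gene lists and motifs were chosen with earlier results of these data known. Named genes were the 8 members, the genes that share a member peak and, of the other lists, genes with a peak at a start site or with most peaks. Genes of these lists without a peak, and noncoding genes at a peak, were named after their values were seen. Motif search and domains were tested on simulated data. Calculations used Python 3.11.15, numpy 2.4.6, scipy 1.17.1 and pysam 0.24.0.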

Additional observations from a re-analysis of the deposited data

How the results depend on the processing

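The assignment of peaks to genes decided most counts. With the basal domain alone 4 of the 8 genes (27.1% of all genes) had a peak and 4 peaks were left, 0 of them at Atf3, whose outer 5' end has no peak in its basal domain. Counting only peaks centred in gene bodies gave 3 genes (25.2% of all genes) and 3 peaks, with 1 at Atf3. Giving each peak to the nearest 5' end of a gene left 11 peaks at 6 genes (35.2% of all genes), 1 of them at Atf3, since 4 peaks are nearer to Nenf and the peak at the internal start is nearer to the 5' end of Fam71a. Smaller assignments hold fewer peaks by construction. Limiting the extension to 100 kb left 7 genes and 18 peaks (43.3% of all genes), peaks of at least 500 bp 7 genes and 16 peaks (34.9%), and any overlap 8 genes and 22 peaks (48.1%). Leaving out chromosomes 4 and 7, chosen after seeing the data, removed Jun and Fosb with their 2 peaks. Genes with a peak near a start site numbered 4 when only the 5' end of the gene was used (24.9% of all genes) or the limit was 500 bp (23.7%), and 5 with a limit of 5 kb (31.9%) or with the edge of the peak (29.3%). The share of peaks with TGGGAA was 66.7% in whole peaks, 4.76% in the central 100 bp (15.4% of all peaks) and 6.25% among peaks of at least 500 bp (17.1% of all such peaks). The share with AP-1 sites was 4.76% in the central 100 bp, where all peaks had 4.53%, so that the gap seen in the central 200 bp was not found there. It was 47.6% in whole peaks (24.8% of all) and 0% among peaks of at least 500 bp (4.10% of all such peaks). Longer windows hold more sites by construction. The list was the same without RBPJ replicate 1 or 2, because the files are identical. No paired analysis was possible because both RBPJ files hold 1 list and no groups were compared. Depth is unknown, so the lack of a peak does not show the lack of binding.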
